A study of Mus musculus with 2 samples.

Results

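The genes described here are the members of the miR-15 and miR-16 family that the counted annotation names Mir15a, Mir16-1, Mir15b, Mir16-2 and Mir497b. They were taken by gene symbol as a family, by a rule that sets no threshold on their values, and all 5 of them were found among 1973 counted microRNA genes. The assay, microRNA-seq by its label, read RNA shorter than 30 nucleotides in liver taken from mouse embryos of strain B6NCrl at day 11.5. The samples formed 1 group of 2 libraries, biological replicates 1 and 2, each from a pool of male and female embryos that the labels call healthy. Replicate 1 came from 109 embryos, the pool size of replicate 2 was not stated, and the labels name no treatment and no altered allele. The design therefore holds no comparison between groups, and the question it can answer is at what level each of these genes stood and how far the pools differed. Values per whole liver do not tell fewer cells of a type from less RNA per cell.

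MicroRNAs of this family pair through their seed, bases 2 to 8 of the mature strand, with messenger RNAs of cell cycle and survival genes, among them Ccnd1 (a cyclin that carries cells out of G1), Ccne1 (a cyclin of S phase entry), Chek1 and Wee1 (kinases that hold cells at checkpoints) and the survival gene Bcl2. The family slows division, and the human locus that holds the MIR15A and MIR16-1 genes is lost in many chronic lymphocytic leukaemias. Day 11.5 is a stage at which the mouse liver grows fast and becomes a site of blood formation.

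The mature sequences show what makes these genes a family and which of them reads can tell apart. The 5p strands are printed with the seed in capitals, from RefSeq on build GRCm38.p6, which shares its coordinates with the mm10 assembly of the counts.
miR-15a-5p: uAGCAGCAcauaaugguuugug
miR-15b-5p: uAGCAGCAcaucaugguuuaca
miR-16-5p: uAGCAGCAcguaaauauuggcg
miR-497a-5p: cAGCAGCAcacugugguuugua
miR-195a-5p: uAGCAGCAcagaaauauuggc
miR-322-5p: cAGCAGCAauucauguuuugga
All 6 carry the seed AGCAGCA, and they differ in the bases after it. Base by base from the 5′ end, miR-15b-5p equalled miR-15a-5p at 18 of 22 positions. The miR-497a-5p strand equalled miR-15a-5p at 17 of 22 positions and miR-16-5p at 11 of 22. The miR-195a-5p strand equalled miR-16-5p at 19 of 21 positions and miR-15a-5p at 15 of 21.

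The genes sit in pairs, a miR-15-like gene upstream of a miR-16-like gene. Mir15a (ENSMUSG00000093007.1) occupies positions 61632027 to 61632110 of chromosome 14 (mm10), in an intron of the long noncoding RNA gene Dleu2 and on its strand. Mir16-1 (ENSMUSG00000092995.1) lies 54 bases downstream at 61631880 to 61631972, over an exon of at least 1 Dleu2 transcript. Mir15b (ENSMUSG00000065580.1) lies on chromosome 3 at 69009772 to 69009835, in an intron of Smc4, which encodes a subunit of the condensin complex that compacts chromosomes for mitosis. Mir16-2 (ENSMUSG00000065606.1) follows it after 66 bases, at 69009902 to 69009996, also in an intron of Smc4. The third locus is on chromosome 11, where Mir497, at 70234717 to 70234800, is followed after 241 bases by Mir195a, with no other annotated gene over either of them on their strand.

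**Figure D1:**
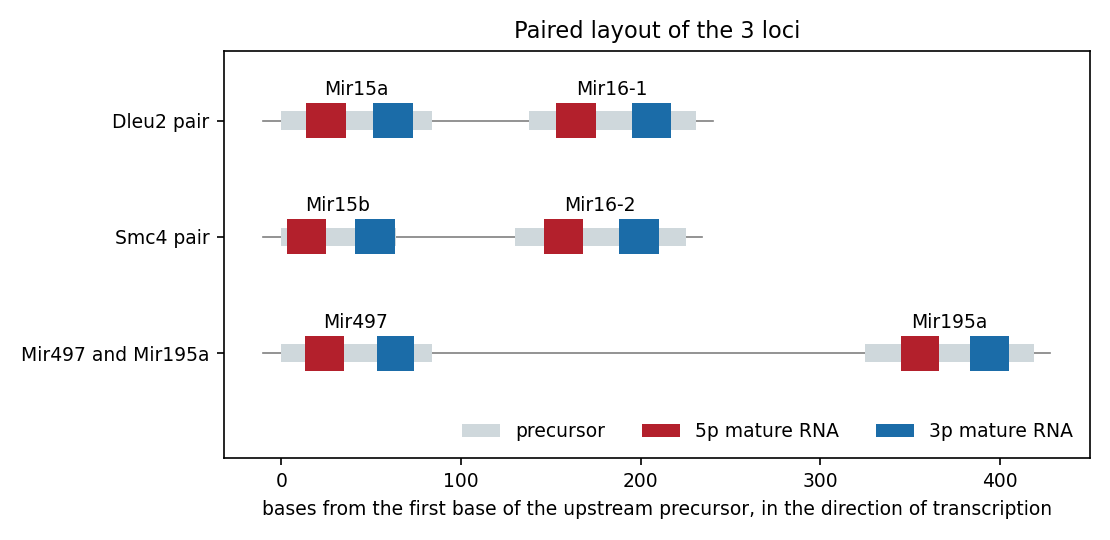
Layout of the 3 loci in bases from the start of the upstream precursor, in the direction of transcription, with precursors in grey, 5p mature strands in red and 3p mature strands in blue. Each locus holds a miR-15-like gene followed by a miR-16-like gene, 54 bases apart in Dleu2, 66 in Smc4 and 241 at Mir497 and Mir195a.

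The copies of miR-16 could be told apart only in part. Their precursors are printed below because they show where, with the longest shared run in capitals.
Mir16-1 precursor: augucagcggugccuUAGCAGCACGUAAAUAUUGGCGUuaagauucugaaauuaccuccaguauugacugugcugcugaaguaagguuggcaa
Mir16-2 precursor: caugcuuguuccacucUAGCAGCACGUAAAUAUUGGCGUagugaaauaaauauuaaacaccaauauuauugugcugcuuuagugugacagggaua
The shared run is 23 bases long and covers the whole of miR-16-5p, which both genes make. A read that lies inside this run fits both genes, and reads that mapped to several places were deposited as a class of their own, with no gene. The counts of Mir16-1 and Mir16-2 thus come from reads that reach beyond the run or lie elsewhere in the precursor, and both genes can be counted far too low. The 3p strands, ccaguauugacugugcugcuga for Mir16-1 and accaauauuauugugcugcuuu for Mir16-2, occur whole in no other counted gene. The tables do not split a gene's reads by arm. Among the 1893 other counted genes whose precursor could be searched, Mir15a shared at most 13 bases with any and Mir15b at most 12. This limit does not touch them among those genes. The search for the 3p strands also left out the counted genes without a matched precursor.

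The symbol Mir497b names a gene on the strand opposite to Mir497, at 70234692 to 70234816. Its annotated product, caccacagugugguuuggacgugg, comes from the strand complementary to the Mir497 hairpin and does not carry the family seed. The count tables hold Mir497b (ENSMUSG00000070109.2) but no entry for Mir497. On the strand of Mir497b there were 8 reads in replicate 1 and 3 in replicate 2. On the opposite strand, the strand of Mir497, there were 1302 and 715. Reads on the strand of Mir497 are the value given for this locus throughout. The other 4 members had 0 reads on the opposite strand in both libraries.

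Replicate 1 held 12750572 reads and replicate 2 held 5471247, of which 3344673 and 1584499 were assigned to a microRNA gene on its own strand. Levels are counts per 1000000 of these assigned counts (CPM). Each read is 1 short RNA, so levels were compared between genes without regard to precursor length. How well each sequence was captured in library making was not measured. Reads that mapped to several places made up 22.0% of the reads of replicate 1 and 22.6% of those of replicate 2. Where nothing was counted, as many as 3 counts remain possible, equal to 0.897 CPM for replicate 1 and 1.89 CPM for replicate 2. Intervals and limits of this kind cover counting error only. MicroRNAs known from the labelled tissue were present: hepatocyte genes, led by Mir122, held 3.30% and 3.69% of the counts and erythroid genes 0.833% and 1.13% in replicates 1 and 2, against 0.0714% and 0.0626% for striated muscle genes. Of the hepatocyte genes, 3 of 5 were detected, and most of their share was Mir122 at 30679 CPM (replicate 1) and 34487 CPM (replicate 2). Of the muscle genes, 3 of 6 counted ones were detected, and Mir1a-2 had no entry. Of neural genes, 0 of 2 counted ones were detected, and most of that list had no entry. Reads that mapped to several places are in none of these shares. Genes known from other cells of the organ were present too. The endothelial Mir126a held 5.74% and 8.01%, mesenchymal genes 2.20% and 3.29%, and leukocyte genes 1.04% and 0.813%. The leukocyte list has no entry for Mir142 and leaves out 140377 and 62714 reads (replicates 1 and 2) opposite to Mir142b. The leukocyte share can thus be far too low. These lists moved between the pools, and their part in the differences of the members between the pools was not tested.

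Together the 5 members held a nearly equal share of the assigned reads in both pools. The reads of miR-16-5p that fit both copies are not in it, so it is a lower value for the family. The share was 1.72% in replicate 1 (95% exact Clopper-Pearson interval 1.71 to 1.74) and 1.71% in replicate 2 (1.69 to 1.73), a mean of 1.72 ± 0.00881% (SD, n = 2). All 5 had at least 10 counts in both libraries, which held for 17.6% of the 1973 counted genes on the strand of the gene. Mir497b met this only on the opposite strand, the column that the rule sets for it, so its detection is not a separate result. Of the members' assigned counts, Mir15a made up 49.2% in replicate 1 and 47.7% in replicate 2, and Mir497b 2.26% and 2.64%. With the missing miR-16-5p reads in the total these shares would be lower, by an amount the tables do not give.

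Mir15a of the Dleu2 pair stood highest of the members by its assigned counts. This gene, which gives the name to the family and represses Bcl2 in human cells, had 8486 CPM in replicate 1 (28382 counts) and 8166 CPM in replicate 2 (12939 counts). Its mean was 8326 ± 226 CPM (SD, n = 2), rank 33 of the 1973 genes by counts on the strand of the gene. Mir16-1, its neighbour in the same transcript, had 3705 CPM in replicate 1 (12391 counts) and 3779 CPM in replicate 2 (5988 counts), with a mean of 3742 ± 52.6 CPM (SD, n = 2) and rank 59. In each library Mir15a lay well above Mir16-1, but reads of miR-16-5p that fit both copies are missing from the second gene. Ranks leave out the opposite-strand counts of genes other than Mir497b. Some of these were larger, as at Mir142b (140377 in replicate 1 and 62714 in replicate 2).

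In the Smc4 pair, too, the upstream gene had more assigned counts than the downstream gene. Mir15b had 3227 CPM in replicate 1 (10792 counts) and 3688 CPM in replicate 2 (5843 counts), a mean of 3457 ± 326 CPM (SD, n = 2) at rank 62. Mir16-2 had 1437 CPM in replicate 1 (4807 counts) and 1035 CPM in replicate 2 (1640 counts), a mean of 1236 ± 284 CPM (SD, n = 2) at rank 103. The values of Mir15b and Mir16-2 did not overlap between the libraries. Mir16-1 and Mir15b, the neighbours in the order of levels, kept their order in both libraries, with Mir16-1 above. Their means differed by less than the SD of Mir15b, so their order was taken as not resolved.

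The chromosome 11 locus was the lowest. On the strand of Mir497 the reads at Mir497b came to 389 CPM in replicate 1 (exact Poisson interval 368 to 411) and 451 CPM in replicate 2 (419 to 486). The mean was 420 ± 43.8 CPM (SD, n = 2), which would rank 149. Its partner Mir195a (ENSMUSG00000065411.2), which slows the division of heart muscle cells in mice, had 324 CPM (replicate 1) and 442 CPM (replicate 2), a mean of 383 ± 83.4 CPM (SD, n = 2). The values of these genes overlapped between the libraries, and their order was not resolved.

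**Figure D2:**
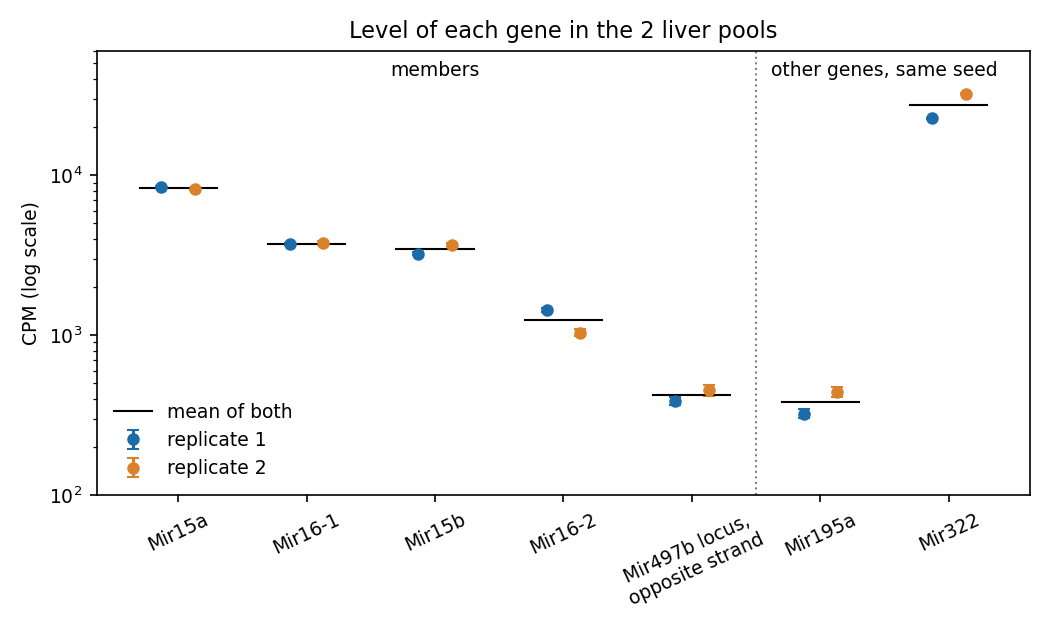
CPM on a log scale for the 5 members, left of the dotted line, and for Mir195a and Mir322, which carry the same seed, with 1 point per library, exact Poisson intervals (95%, counting error only) and a line at the mean. Mir15a stands highest of the members at 8486 and 8166 CPM in replicates 1 and 2, and the Mir497b locus lowest at 389 and 451 CPM.

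The upstream gene of the Dleu2 and Smc4 pairs had more counts than the downstream gene in both libraries. Mir15a had 2.29 times the counts of Mir16-1 in replicate 1 (exact binomial interval 2.24 to 2.34) and 2.16 times in replicate 2 (2.10 to 2.23). Mir15b had 2.25 times the counts of Mir16-2 in replicate 1 (2.17 to 2.32) and 3.56 times in replicate 2 (3.37 to 3.77). Neither set of intervals overlapped, so both ratios differed between the pools by more than counting error, that of the Dleu2 pair by 1.06 times and that of the Smc4 pair, the other way, by 0.630 times (replicate 1 over replicate 2). Reads at the Mir497b locus had 1.20 times the counts of Mir195a in replicate 1 (1.11 to 1.30) and 1.02 times in replicate 2 (0.919 to 1.14), an interval that includes equal counts. The ratios with Mir16-1 and Mir16-2 can be too high, because the reads that fit both copies are missing from their counts.

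Set against each other, the Dleu2 locus gave more assigned reads than the Smc4 locus. The sum of Mir15a and Mir16-1 was 12190 CPM for replicate 1 and 11945 CPM for replicate 2, a mean of 12068 ± 173 CPM (SD, n = 2). The sum of Mir15b and Mir16-2 was 4664 CPM for replicate 1 and 4723 CPM for replicate 2, a mean of 4693 ± 41.6 CPM (SD, n = 2). The first sum was 2.61 times the second in replicate 1 and 2.53 times in replicate 2. Gene by gene, Mir15a had 2.63 times the counts of Mir15b in replicate 1 (2.57 to 2.69) and 2.21 times in replicate 2 (2.15 to 2.28). Mir16-1 had 2.58 times the counts of Mir16-2 in replicate 1 (2.49 to 2.67) and 3.65 times in replicate 2 (3.46 to 3.86). The reads of miR-16-5p that fit both copies could shift the sums and the ratio of the miR-16 genes. The ratio of Mir15a over Mir15b does not depend on them.

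**Figure D3:**
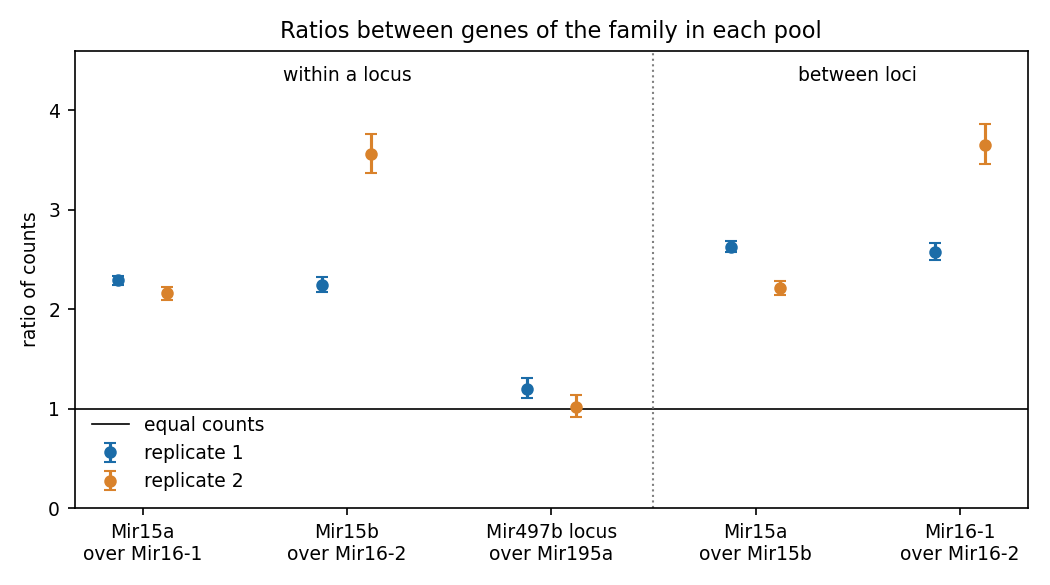
Ratio of counts between genes in each library, within a locus (left of the dotted line) and between loci (right), with exact binomial intervals (95%, counting error only). Mir15a over Mir16-1 stood at 2.29 and 2.16 in replicates 1 and 2, while both ratios that divide by Mir16-2 were higher in replicate 2, at 3.56 and 3.65, than in replicate 1, at 2.25 and 2.58.

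Between the libraries the members differed by 1.40-fold at most. With only 5 genes, their calls could not be told from the share over all features. No member was both past an adjusted p of 0.05 and at least 2-fold apart in a two-sided exact binomial test with Benjamini-Hochberg adjustment over 475 features, where 8% of all features (38 of 475) were. That test knows counting error only and compares these 2 libraries, not conditions. At any fold, 4 of the 5 members had an adjusted p under 0.05 (the same 4 had an unadjusted p under 0.05), against 49.9% of all features and 77.5% of those with a mean count of at least 100. With edgeR's exact test and an assumed biological coefficient of variation of 0.2, 0 of the 5 members and 1 of all 475 features were called. The members' adjusted p-values in that edgeR exact test ran from 0.722 for Mir16-2 to 1 for Mir15a and Mir16-1.

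Mir16-2 differed most. It had a log2 ratio of replicate 1 over replicate 2 of 0.49, a 1.40-fold difference, with an adjusted p of 9.14e-33 in the exact binomial test. Mir15b, from the same intron, went the other way with a log2 ratio of -0.18 (adjusted p of 7.94e-14, exact binomial test). The log2 ratio was -0.20 at the Mir497b locus (adjusted p of 0.00670) and 0.07 for Mir15a (adjusted p of 3.04e-05) in the same exact test. Mir16-1 had a log2 ratio of -0.02 and an adjusted p of 0.593 in the exact binomial test. The median fold between the libraries was 1.13 over the 5 members and 1.28 over 267 features with a mean count of at least 100.

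**Figure D4:**
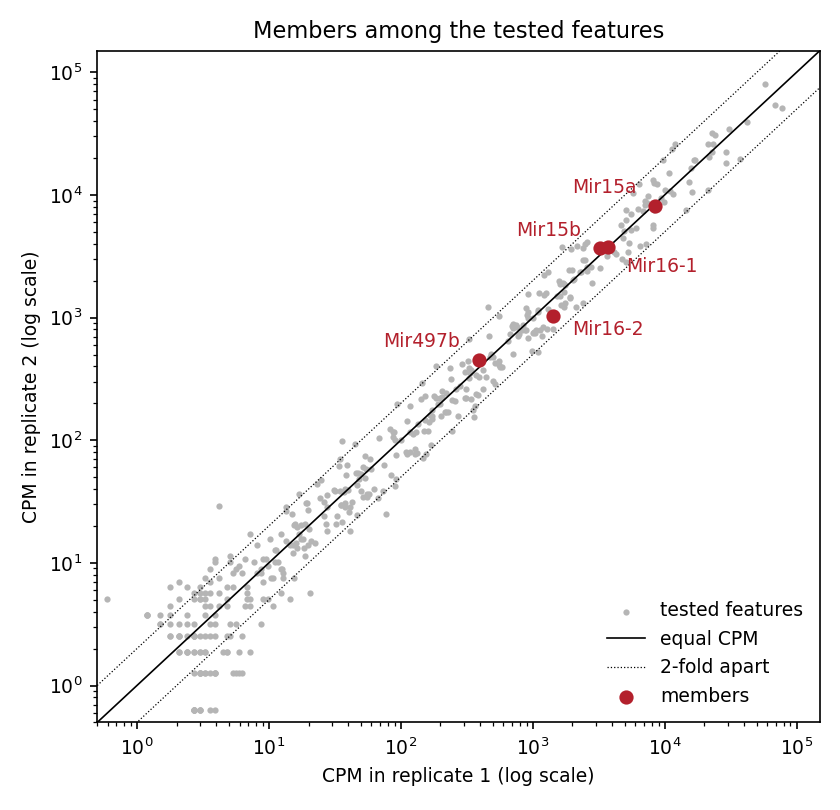
CPM in replicate 2 against replicate 1, both on log scales, for the 470 tested features with a count in both libraries (grey) and the 5 members (red), with a solid line at equal CPM and dotted lines 2-fold apart. All 5 members lie between the dotted lines, and Mir16-2, at 1437 and 1035 CPM in replicates 1 and 2, lies farthest from equality.

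The genes most like each member in level were taken as the counted genes just above and just below it in mean CPM, a likeness over 2 libraries that says nothing of control or role. Mir15a stood between Mir451a, a microRNA of red cell precursors, at 8644 CPM and Mir92-1 of the Mir17 cluster at 8276 CPM. Mir16-1 stood between Mir337 at 3766 CPM and Mir140, known from cartilage, at 3644 CPM. Mir15b stood between Mir433 at 3624 CPM and Mir101b at 3359 CPM. Mir16-2 stood between Mir374b at 1239 CPM and Mir455 at 1130 CPM, and the Mir497b locus between Mir495 at 473 CPM and Mir673 at 413 CPM. The order of a member and its neighbour turned between the libraries for 8 of these 10 neighbours.

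Among genes with the same seed, Mir322 held more assigned reads than the 5 members together, a comparison that leaves out the miR-16-5p reads that fit both Mir16 genes. Those reads carry the seed and belong to the members, and their number is not known, so with them the order could turn. RefSeq names 11 mouse genes whose mature strand has AGCAGCA at bases 2 to 8, of which 10 were counted under their own name, 4 of them members. Of the other 6, Mir322 and Mir195a were detected, and Mir195b, Mir6342, Mir6353 and Mir6419 had 0 counts in both libraries, so that levels up to 0.897 CPM (replicate 1) and 1.89 CPM (replicate 2) remain possible. By assigned counts alone, the 5 members held 42.8% of the counts of all genes with this seed in replicate 1 and 34.3% in replicate 2, with the reads at Mir497b taken as Mir497. Mir322, an X-linked gene that lowers the phosphatase Cdc25a in mouse myoblasts, held 56.4% and 64.8%, with 22729 CPM (replicate 1) and 32295 CPM (replicate 2). With Mir322 and Mir195a the seed came to 4.03% of all assigned counts in replicate 1 and 4.99% in replicate 2. Shares are per gene and include both arms, so not every such read need carry the seed.

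Other microRNAs known to act on the cell cycle were set beside the family. Against the members' 1.72% and 1.71% of the counts in replicates 1 and 2, the Mir34 and Mir449 genes, which restrain division and of which the Mir34 genes are induced by p53, held 0.139% and 0.0993%, with 4 of 6 genes detected. They were led by Mir34c with 1199 CPM (replicate 1) and 841 CPM (replicate 2), followed by Mir34a at 118 and 79.5 CPM. The cluster of Mir322, Mir503 and Mir351 held 2.99% and 3.72% with 3 of 3 detected. The Mir17 cluster, which promotes division, held 12.7% and 8.78% with 6 of 6 detected, led by Mir17 and Mir20a. The intervals of these shares and of the members' share did not overlap in either library, but they cover counting error only. Reads that mapped to several places are in none of these shares, and how many the other lists lost is not known. With the miR-16-5p reads that are missing from the members' share, its place below the Mir322 and Mir17 clusters could change.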

How the data were processed

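The authors deposited raw counts, 1 table per library, with 3 columns of whole reads for each microRNA gene: either strand, strand of the gene, opposite strand. The files' own description names mm10 and GENCODE annotation M4. The meaning of the columns was read from the values, since the strand columns summed to the first for all but 2 entries over both files. Aligner, counter and trimming: not given in the sources used here. The 4 summary classes that name no gene, 73.8% and 71.0% of the reads of replicates 1 and 2, were left out of library sizes.

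CPM is the count over all counts on the strand of the gene. For Mir497b the opposite-strand count was taken over the same total. Symbols, positions and hosts came from GENCODE M21 on the same assembly, by identifier without version, which matched 1894 of 1973 genes and all 5 members (Mir15b in a later version). Shared runs were searched on both strands of the M21 precursors of the matched genes.

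Each gene's count on either strand was a feature. Those with at least 10 summed counts (475) were tested between the libraries by exact binomial test with TMM library sizes from edgeR 4.0.16 in R 4.3.3, and 0.5 was added to each count for log2 ratios. The test was checked on simulated counts. DESeq2 1.42.0 gave size factors for an alternative. Python 3.11.15 and scipy 1.17.1 were used. The spread between the pools may be biological or technical, and no molecular identifiers are described. The rule picks the members by symbol only, but it also sets the opposite-strand column for Mir497b, where nearly all reads of that locus lay. The family was proposed, and the lists and tests were chosen, with earlier results of these data known. The choice was thus not independent of the data. Named genes were the members, counted genes with their seed, the 2 most abundant genes of each list and the genes nearest in level.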

Additional observations from a re-analysis of the deposited data

Results flagged for a closer look

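The strand of Mir497b itself, a column not used for that locus, held 8 reads in replicate 1, which is above the 3 counts that a count of 0 allows, and 3 reads in replicate 2, which is not. Against them stood 1302 and 715 reads on the opposite strand. No explanation was tested.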

How the results depend on the processing

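No paired analysis was possible because the labels form a single group. Of 77 alternatives, 63 moved no value beyond the SD of the libraries, its call or 1.5 times a count. These include all 20 for the members' log2 ratios, none of which changed sign or call. Some of the 63 could not have come out otherwise and are no check. Leaving out 1 of 2 libraries always moves a mean by less than the SD. Ratios of genes without opposite-strand reads cannot change when both strands are counted. Taking the total of both strands as denominator, with either count column, gave means of 7558 CPM for Mir15a and 3397 CPM for Mir16-1. Leaving the 10 most abundant genes out of the denominator raised every mean by construction, to 13559 CPM for Mir15a, 6089 CPM for Mir16-1, 5618 CPM for Mir15b, 2020 CPM for Mir16-2 and 683 CPM for Mir497b. The members' share of 1.72% became 1.68% with the strand of the gene for all 5 members, 1.68% without Mir497b (an alternative chosen after seeing the data) and 1.56% with both strands counted. The 38 features called between the libraries became 20 when only those with at least 100 summed counts were tested, since fewer were tested, and 1 with edgeR's exact test and an assumed coefficient of variation of 0.2, which allows for spread beyond counting. Without either replicate the mean of Mir15a was 8166 to 8486 CPM and the ratio of Mir15b over Mir16-2 was 2.25 to 3.56. With 2 libraries, no order of levels closer than their spread can be resolved.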
